A study of Homo sapiens with 10 samples.

Results

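The genes described here make, break down or bind hyaluronan. They are 9 of the 18144 genes in the deposited table, chosen by symbol with earlier results of these data known. The 9 are the synthases HAS2 and HAS3, the precursor enzymes UGDH and UGP2, the hyaluronidases HYAL1, HYAL2, HYAL3 and CEMIP2, and the receptor CD44. RNA was sequenced from 3D spheroids of wild-type PC-3 cells (PC3 in the sample labels), a human prostate cancer line. Untreated spheroids were taken on days 0, 3 and 7. Spheroids given topotecan, a topoisomerase I inhibitor, as a bolus on day 0 (CONV-TOPO) or as daily fractions of the same weekly total (extended exposure, EE-TOPO) were taken on days 3 and 7, which gave 7 libraries with 1 library per treatment and day. All groups are 1 cell line, so a difference between groups is a difference between single cultures. The study's text calls the later time 6 weeks and the labels call it day 7; the labels are followed here.

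Hyaluronan is a long, unsulfated sugar polymer of the extracellular matrix. A synthase in the plasma membrane builds it from UDP-glucuronic acid and UDP-N-acetylglucosamine and extrudes the chain, and the supply of these UDP-sugars can limit its synthesis. Hyaluronidases cut long chains into shorter ones, and cells sense hyaluronan through surface receptors, of which CD44 is the main one on epithelial and carcinoma cells. In prostate cancer, hyaluronan and its turnover have long been studied for their links to adhesion, migration and metastasis.

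Depth was estimated from the step that 1 read makes among low values. It ran from 15.03 to 22.5 M reads (M, 1e+06) per library. Values are read counts per M reads (CPM), and ratios of single libraries carry 95% intervals that cover counting error only. The median log2 CPM ratio to same-day untreated spheroids, over 9985 genes with a mean of at least 10 CPM, was -0.24 for EE-TOPO and -0.26 for CONV-TOPO on day 7, so ratios are given also after TMM scaling (trimmed mean of M values), which brought both medians to within 0.1 of 0. The epithelial markers KRT8, KRT18, KRT19, EPCAM and CDH1 were all expressed, at a summed 3125 to 3627 CPM in untreated and 2809 to 5142 CPM in topotecan libraries, and the mesenchymal marker VIM was at 731 to 851 CPM and 982 to 1074 CPM. The 4 listed leukocyte markers summed to 69.3 to 100.6 CPM in untreated and 98.3 to 132 CPM in topotecan libraries, of which CD68, also a lysosomal gene of epithelial cells, made up 65.7 to 128 CPM, whereas the leukocyte gene PTPRC stayed at or below 0.489 CPM. Fibroblast markers summed to 58.6 to 92.2 CPM without and 53.4 to 87.0 CPM with topotecan, and endothelial markers to 41.9 to 61.8 CPM and 39.1 to 84.2 CPM. Of the fibroblast markers, COL1A1 was at 46.6 to 83.0 CPM and COL3A1 at 3.26 to 16.0 CPM. COL1A2, DCN, LUM and PDGFRB each stayed at or below 1.11 CPM. The part of other cell types in the results was not tested. In bulk RNA, fewer cells that express a gene and less of its RNA per cell cannot be told apart.

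HAS3, CEMIP2, HYAL2 and HYAL3 are the 4 members that passed the test on day 7 in the fit by day given further on, and the stretches before their start sites are shown to place them in the genome. The sequences are from RefSeq on GRCh38.p14, written 5′ to 3′ on the gene's strand, with matches to GGGCGG on either strand in capitals. That hexamer is the core of the GC box bound by SP1-type factors. Bases that lie in an exon of any transcript or inside the listed gene were left out for HYAL2 and HYAL3. The RefSeq start of HYAL2 is 105 bases inside the listed gene, and those 105 bases next to the start were left out. For HAS3 (chr16:69107290-69107539, plus strand) the RefSeq start is 1887 bases inside the listed gene.
HAS3: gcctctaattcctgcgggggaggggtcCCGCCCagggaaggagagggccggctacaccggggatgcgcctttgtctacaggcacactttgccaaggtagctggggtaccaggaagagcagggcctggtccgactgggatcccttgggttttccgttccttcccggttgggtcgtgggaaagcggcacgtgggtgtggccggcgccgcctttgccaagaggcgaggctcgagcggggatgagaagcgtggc
For CEMIP2 (chr9:71768514-71768763, minus strand) the listed and RefSeq starts are the same.
CEMIP2: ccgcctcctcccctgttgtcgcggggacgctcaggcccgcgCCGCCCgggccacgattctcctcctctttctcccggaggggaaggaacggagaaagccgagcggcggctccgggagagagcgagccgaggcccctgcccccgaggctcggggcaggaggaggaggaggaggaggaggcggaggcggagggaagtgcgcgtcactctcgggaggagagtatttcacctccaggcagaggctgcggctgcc
HYAL2 (chr3:50322851-50322995, minus strand) and HYAL3 (chr3:50299417-50299655, minus strand) belong to a cluster of hyaluronidase genes, and with HYAL1 between them they span 30.0 kb of chromosome 3.
HYAL2: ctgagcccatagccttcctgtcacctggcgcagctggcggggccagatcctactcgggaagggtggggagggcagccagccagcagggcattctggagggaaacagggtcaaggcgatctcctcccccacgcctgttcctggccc
HYAL3: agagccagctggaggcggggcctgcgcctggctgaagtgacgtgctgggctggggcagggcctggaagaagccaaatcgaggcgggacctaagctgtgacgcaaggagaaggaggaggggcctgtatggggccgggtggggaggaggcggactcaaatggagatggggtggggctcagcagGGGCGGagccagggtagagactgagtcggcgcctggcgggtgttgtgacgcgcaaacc
The HAS3, CEMIP2 and HYAL3 stretches each hold 1 match to GGGCGG. Windows of 250 bases hold it in 42.6% and windows of 239 bases in 41.2% of the 35116 promoters in the same RefSeq set. The HYAL2 stretch holds none, and 24.9% of promoter windows of its 145 bases do. The TATA box core TATAAA, the AP-1 site TGAGTCA and the TEAD site GGAATG were also searched on both strands and have no match in the 4 stretches. Of promoter windows of 250 bases, 10.7% hold the TATA box letters, 4.20% the AP-1 site and 11.9% the TEAD site. Of windows of 145 bases, as for HYAL2, 6.12%, 2.09% and 7.24% do. Matches next to the RefSeq start of HYAL2 could not be found, because those bases were not searched. GC content was 66% for HAS3, 71.6% for CEMIP2, 66.9% for HYAL2 and 67.4% for HYAL3, against medians of 56.6% to 58.2% over promoter windows of the same lengths.

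Expressed per kb of transcript, HAS3 was the most abundant of the 9 genes. Its level ran from 124 to 220.1 CPM per kb over the 7 libraries, with a median of 166. CD44 followed with a median of 60.6 and HYAL2 with 48.1 CPM per kb, and the ranges of these overlapped. UGP2 had a median of 32.9, UGDH of 16.6, HYAL3 of 11.3 and HAS2 of 10.7 CPM per kb, and the ranges of UGDH and HYAL3, and of HYAL3 and HAS2, overlapped. CEMIP2 lay at 3.05 and HYAL1 at 0.233 CPM per kb. Every other pair of neighbours in this order was apart in all libraries. Per transcript length, HAS3 exceeded HAS2 by 11.6-fold to 22.9-fold, with the highest ratios in the untreated libraries of days 0 and 7. The third synthase, HAS1, was at 0 to 0.399 CPM, at most 6 reads in a library, so hyaluronan synthase RNA in these spheroids was mostly HAS3 in every library.

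**Figure D1:**
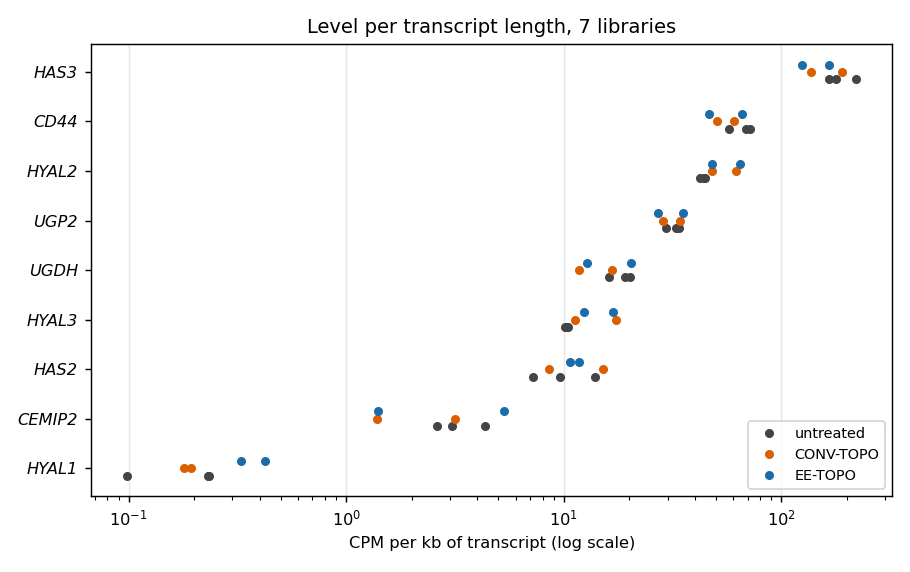
Level of each of the 9 genes in CPM per kb of transcript on a log axis, 1 point per library, grey for untreated, orange for CONV-TOPO and blue for EE-TOPO. HAS3 lies at 124 to 220.1 CPM per kb in all 7 libraries, above every library of every other gene, and HYAL1 lies below 1.

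HAS3, which makes hyaluronan at the plasma membrane, is listed at chr16:69105653-69118716 with 4 exons and a transcript of 4191 bases. Untreated spheroids held 689.9, 746 and 923 CPM of it on days 0, 3 and 7. CONV-TOPO spheroids held 799 CPM on day 3 and 572 on day 7, and EE-TOPO spheroids 694 and then 520.1 CPM. On day 3 the topotecan libraries lay on either side of untreated. On day 7 both were below all 3 untreated libraries, while the untreated level was at its highest. The TMM-scaled ratio of EE-TOPO to untreated was 0.887 on day 3 and 0.658 on day 7, and that of CONV-TOPO was 1.04 and then 0.738.

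HAS2, the other expressed synthase, is on chromosome 8 and has 4 exons. Untreated spheroids held 30.7, 58.7 and 40.8 CPM of it on days 0, 3 and 7. CONV-TOPO spheroids held 64.5 CPM on day 3 and 36.1 on day 7, and EE-TOPO spheroids 50.02 and then 45.4 CPM. Treated and untreated libraries overlapped on both days. In each treatment the day 7 level in CPM was below that of day 3, but after TMM scaling EE-TOPO went from 45.8 to 50.4 CPM. The lowest level of all was at day 0 on both scales. On day 7, HAS2 under CONV-TOPO was 0.885 times untreated (95% interval 0.795 to 0.987) as deposited and 1.05 times after TMM scaling, so its direction depends on the scaling.

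UGDH (chr4:39498755-39527439, 12 exons) oxidizes UDP-glucose to UDP-glucuronic acid, the direct precursor. Untreated spheroids held 57.9, 61.3 and 48.8 CPM of it on days 0, 3 and 7. CONV-TOPO spheroids held 50.3 CPM on day 3 and 35.6 on day 7, and EE-TOPO spheroids 61.9 and then 38.8 CPM. The day 7 level was the lowest in each treatment, and on day 7 both regimens were below untreated. After TMM scaling those day 7 ratios were 0.869 with CONV-TOPO and 0.928 with EE-TOPO.

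UGP2 (chr2:63840969-63891560, 10 exons) makes the UDP-glucose that UGDH uses. It varied least of the expressed members, from 58.2 to 76.1 CPM. Its highest values were 73.7 CPM with CONV-TOPO and 76.1 CPM with EE-TOPO on day 3, and its lowest were 61.2 and 58.2 CPM with the same regimens on day 7. Untreated spheroids were at 70.6, 63.3 and 72.5 CPM, between these. TMM scaling changed that order, and the highest and lowest were then untreated spheroids of day 0 (72.0 CPM) and day 3 (60.8 CPM). After TMM scaling the day 7 ratio was 1.01 with CONV-TOPO and 0.938 with EE-TOPO. On that scale neither precursor enzyme stood far from untreated where HAS3 did. On deposited CPM the day 7 ratios with CONV-TOPO and EE-TOPO were 0.845 and 0.803 for UGP2 and 0.730 and 0.795 for UGDH. Their 95% intervals all lay below 1, and the same ratios of HAS3 were 0.620 and 0.564.

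HYAL2 (chr3:50317790-50322850, 4 exons) is anchored to the cell surface by GPI and cuts high-molecular-weight hyaluronan into intermediate fragments. Untreated spheroids held 79.9, 82.7 and 84.2 CPM of it on days 0, 3 and 7. CONV-TOPO spheroids held 90.5 CPM on day 3 and 117 on day 7, and EE-TOPO spheroids 90.4 and then 121 CPM. All 4 topotecan libraries were above all 3 untreated ones. The ratio to untreated on day 7 was 1.44 (95% interval 1.35 to 1.54) with EE-TOPO and 1.38 (1.29 to 1.48) with CONV-TOPO, and 1.68 and 1.65 after TMM scaling.

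HYAL3 (chr3:50292832-50299405, 4 exons), a neighbour of HYAL2 with little known enzyme activity of its own, followed the same course. Untreated spheroids held 19.1, 19.6 and 19.04 CPM of it on days 0, 3 and 7. CONV-TOPO spheroids held 21.2 CPM on day 3 and 32.6 on day 7, and EE-TOPO spheroids 23.4 and then 31.6 CPM. Again the 4 topotecan libraries lay above the 3 untreated ones, and the day 7 ratios were 1.66 (1.45 to 1.91) with EE-TOPO and 1.71 (1.497 to 1.96) with CONV-TOPO. The centred log2 profiles of HYAL2 and HYAL3 over the 7 libraries differed by a root mean square of 0.0888, the least of any pair of members. The listed span of HYAL3 shares 3004 bases with NAA80 on the same strand, so reads of these genes may have been split or assigned to either.

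Over all tested genes, 4.93% had every topotecan library above every untreated one and 5.8% had every one below, at TMM-scaled levels. Of the 9 members, HYAL2 and HYAL3 were above and none was below. This held with the deposited CPM, with another scaling and without the day 0 library. The margins on day 3 were small on the TMM scale. HYAL2 was at 82.9 CPM with EE-TOPO on day 3 against 81.4 CPM in untreated spheroids of day 0. HYAL3 was at 19.7 CPM with CONV-TOPO on day 3 against 19.5 CPM in the same untreated library.

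HYAL1 (chr3:50299889-50312381, 4 exons), a lysosomal hyaluronidase that has been studied in prostate cancer, was near the limit of detection. It was at 0.2004 CPM (4 reads) on day 0, 0.476 CPM (9 reads) on day 3 and 0.473 CPM (9 reads) on day 7 without drug. CONV-TOPO spheroids held 0.395 CPM on day 3 and 0.365 on day 7, with 6 reads each, and EE-TOPO spheroids 0.667 CPM (15 reads) and then 0.865 CPM (13 reads). The EE-TOPO libraries were the highest, but their 95% intervals of 0.373 to 1.10 CPM and 0.461 to 1.48 CPM overlapped those of the untreated libraries of days 3 and 7. HYAL1 passed the filter on low values, 0.565 CPM in 2 libraries, only through the 2 EE-TOPO libraries. A difference between treatments was not detectable at this depth.

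CEMIP2 (chr9:71683366-71768513, 24 exons), also called TMEM2, is a membrane protein reported to degrade hyaluronan at the cell surface. Untreated spheroids held 18.8, 16.01 and 26.7 CPM of it on days 0, 3 and 7. CONV-TOPO spheroids held 19.5 CPM on day 3 and 8.51 on day 7, and EE-TOPO spheroids 32.8 and then 8.65 CPM. The highest level of all was with EE-TOPO on day 3 and the lowest were with both regimens on day 7. On day 3 EE-TOPO spheroids held 2.05 times the untreated level (1.79 to 2.35) and CONV-TOPO spheroids 1.22 times (1.04 to 1.44). On day 7 they held 0.324 times (0.265 to 0.394) and 0.319 times (0.263 to 0.385). Between regimens, EE-TOPO exceeded CONV-TOPO by 1.68-fold (1.46 to 1.93) on day 3, and on day 7 the ratio was 1.02 (0.795 to 1.30).

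CD44 (chr11:35139171-35232402, 18 exons in the reference transcript) binds hyaluronan at the cell surface and marks cells with stem-like features in many carcinomas. Untreated spheroids held 374, 313 and 389.9 CPM of it on days 0, 3 and 7. CONV-TOPO spheroids held 329 CPM on day 3 and 276 on day 7, and EE-TOPO spheroids 359 and then 252 CPM. On day 3 both regimens were above untreated, and on day 7 both were below all untreated libraries in CPM. After TMM scaling CONV-TOPO on day 7, at 312 CPM, was above untreated spheroids of day 3, at 300.7 CPM. The day 7 ratio was 0.647 (0.622 to 0.673) with EE-TOPO and 0.707 (0.681 to 0.734) with CONV-TOPO, and after TMM scaling 0.756 and 0.842.

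**Figure D2:**
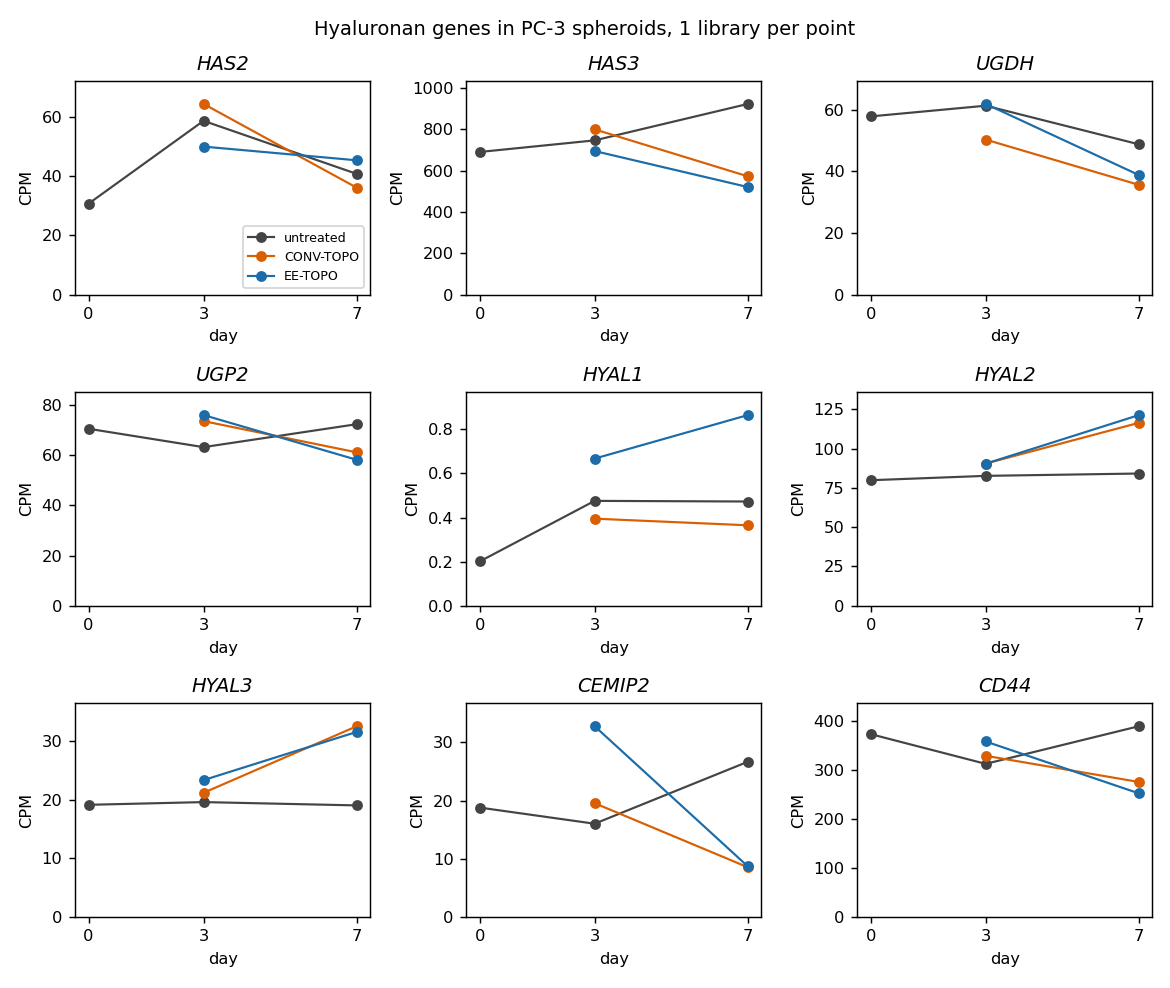
CPM of each member (y axis from 0) by day (x axis), 1 library per point, with lines joining the libraries of a treatment: grey untreated, orange CONV-TOPO, blue EE-TOPO. HAS3 and CD44 with topotecan end below the untreated line on day 7 (HAS3 572 and 520.1 against 923 CPM), HYAL2 and HYAL3 end above it, and CEMIP2 goes from 32.8 CPM with EE-TOPO on day 3 to 8.65 CPM on day 7.

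Set side by side on the TMM scale, the members were spread on day 7 and close to untreated on day 3. On day 3, CEMIP2 with EE-TOPO was the 1 value of the 8 members with at least 10 CPM that was at least 1.5-fold higher, where 5.4% of all such genes were, and under CONV-TOPO none of the 8 was, where 2.52% were. None was at least 1.5-fold lower, against 4.79% of genes under EE-TOPO and 2.31% under CONV-TOPO. On day 7 HYAL2 and HYAL3 were at least 1.5-fold higher with each regimen, against 21.7% of genes with EE-TOPO and 21.4% with CONV-TOPO. HAS3 and CEMIP2 were at least 1.5-fold lower with EE-TOPO (23.2% of genes), and CEMIP2 alone with CONV-TOPO (21.5%). The members' shares on day 7 were near those of all genes. On day 3 the median log2 ratio of the 8 members was 0.09 for EE-TOPO and 0.08 for CONV-TOPO (all genes, -0.06 and -0.03), and on day 7 it was -0.10 for each (all genes, -0.02 and -0.01). All ratios of a day use the same untreated library, so the regimens' values are not independent.

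**Figure D3:**
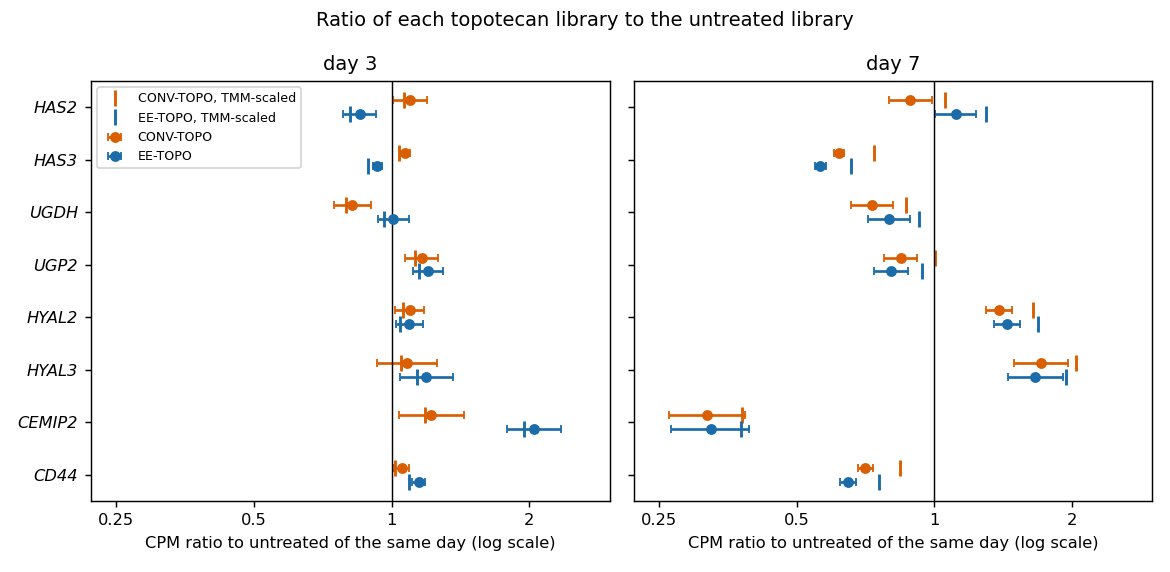
Ratio of each topotecan library to the untreated library of the same day for 8 members on a log axis, day 3 left and day 7 right; points are deposited CPM with 95% counting intervals and vertical ticks are TMM-scaled ratios, orange CONV-TOPO and blue EE-TOPO. Day 3 values lie near 1 apart from CEMIP2 with EE-TOPO (2.05), and day 7 values reach from 0.319 for CEMIP2 to 1.71 for HYAL3.

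The comparisons set by the design asked whether either regimen differed from untreated spheroids, and fractionated from bolus topotecan, averaged over days 3 and 7. With limma on 14731 genes and 6 libraries, 0 genes passed an adjusted p of 0.05 in any of the 5 comparisons (0% called). At an unadjusted p under 0.05 there were 525 genes for EE-TOPO against untreated (3.56%), 254 for CONV-TOPO (1.72%) and 129 for EE-TOPO against CONV-TOPO (0.876%). There were 530 for both regimens against untreated (3.6%) and 1460 for day 7 against day 3 (9.91%). None of the 9 members was among them. For both regimens against untreated, the log2 fold change of HAS3 was -0.29 (standard error 0.23), of HYAL2 0.40 (0.23), of HYAL3 0.54 (0.27), of CEMIP2 -0.37 (0.46) and of CD44 -0.12 (0.21), with adjusted p from 0.814 to 0.873 by limma. HAS2 was at 0.06, UGDH at -0.17, UGP2 at 0.07 and HYAL1 at 0.11. The error of this fit is how much an effect differed between days. Without the untreated day 3 library, untreated is 1 library and the values for both regimens are the day 7 differences. These are -0.52 for HAS3, 0.73 for HYAL2, 0.95 for HYAL3, -1.31 for CEMIP2 and -0.33 for CD44. Without the untreated day 7 library the values are the day 3 differences. For the same genes these are -0.06, 0.07, 0.12, 0.57 and 0.08.

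Between the regimens, the log2 fold change of EE-TOPO against CONV-TOPO was -0.20 for HAS3 (95% interval -0.85 to 0.45), -0.03 for CD44 (-0.63 to 0.58), 0.00 for HYAL2 (-0.64 to 0.65) and 0.02 for HYAL3 (-0.74 to 0.78). It was 0.34 for CEMIP2 (-0.94 to 1.63) and -0.04 for HAS2 (-0.71 to 0.62). The intervals reach past 1.5-fold in both directions for HAS2, HYAL2, HYAL3 and CEMIP2, and in 1 direction for HAS3, CD44 and UGDH (-0.37 to 0.73). The HYAL1 interval (-0.32 to 1.03) cannot be set against 1.5-fold, because the 1 CPM added before the log shrinks its fold changes. Its value of 0.35 was 0.83 with 0.1 CPM added. For UGP2 the interval was -0.58 to 0.51, just short of 1.5-fold. The regimens were not shown to act alike or to differ.

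Because the members differed from untreated mainly on day 7, a second limma fit, chosen after seeing the data, took the regimens of a day as 2 values of topotecan and compared days separately. Its error is the difference between regimens on a day, and the single untreated library of a day is assumed to vary as much, so its p-values do not measure the spread between untreated cultures. On day 3 against untreated it called 3 genes (0.0204%) and no member. On day 7 against untreated it called 5770 genes (39.2%); 18.8% of all tested were higher and 20.4% lower. Of the calls 48.0% were higher, and with library totals in place of TMM 29.1% were. It called 4 of the 9 members, 2 in each direction, a share close to that of all genes.

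On day 7 against untreated, HYAL2 was higher by 0.73 on the log2 scale (standard error 0.13, adjusted p = 0.00277 by limma) and HYAL3 by 0.95 (0.19, adjusted p = 0.00405). CEMIP2 was lower by 1.31 (0.29, adjusted p = 0.00653) and HAS3 by 0.52 (0.17, adjusted p = 0.0331). CD44 was at -0.33 (adjusted p = 0.0940), and HAS2 (0.22), UGDH (-0.15), UGP2 (-0.04) and HYAL1 (0.20) did not pass either. HAS3 lost its call without the CONV-TOPO day 3 library (adjusted p = 0.0568), without the EE-TOPO day 3 library (0.0572) and without the EE-TOPO day 7 library (0.123), with log2 fold changes of -0.52, -0.52 and -0.44. Without TMM scaling CD44 was at -0.56 and passed (adjusted p = 0.00976 by limma). After TMM scaling, the untreated library of day 7 was 1.22 times that of day 3 for HAS3 and 1.65 times for CEMIP2. From day 3 to day 7 under topotecan, HAS3 changed by -0.17 (adjusted p = 0.321 by limma) and CEMIP2 by -1.20 (0.00257). HYAL2 changed by 0.67 (0.000996) and HYAL3 by 0.78 (0.00271). That comparison called 3 of the 9 members and 48.2% of all genes.

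Against the change of untreated spheroids over the same days, the change from day 3 to day 7 under topotecan differed for CEMIP2 by -1.89 (adjusted p = 0.00882), for HYAL2 by 0.66 (0.0274) and for HYAL3 by 0.83 (0.0418), by limma. For HAS3 the difference was -0.46 (adjusted p = 0.166) and for CD44 -0.40 (0.154). With library totals both passed, HAS3 at -0.76 (adjusted p = 0.0291) and CD44 at -0.70 (0.0236). Over all genes 29% were called. The HYAL2 and HYAL3 calls were lost with library totals, with no removal of low genes, with no mean-variance trend (adjusted p = 0.0957 and 0.0611), and without any 1 of the 4 treated libraries. The CEMIP2 call was lost with no removal of low genes (adjusted p = 0.0824) and without the EE-TOPO day 3 library (-1.54, adjusted p = 0.0563).

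Across the table, the day 7 ratios moved with gene structure. A smooth trend with gene span, transcript length and GC content held 34.4% of the variance of day 7 log2 ratios under EE-TOPO and 36.9% under CONV-TOPO over 14078 genes. For the day 3 ratios it held 18.6% and 8.82%. HYAL2 and HYAL3 are short and GC-rich (transcripts of 1882 and 1878 bases at 60.1% and 60.6% GC), whereas CEMIP2 and CD44 have longer transcripts of 6152 and 5431 bases at 44.3% GC and spans of 85148 and 93232 bases. The trend alone gave HYAL2 0.59 and 0.55, HYAL3 0.59 and 0.55, CD44 -0.42 and -0.41 and CEMIP2 -0.48 and -0.46 on day 7 with EE-TOPO and CONV-TOPO. It gave HAS3 0.02 and -0.01. The part of this trend in the results was not tested.

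With the trend removed, HAS3 was at -0.53 on day 7 (adjusted p = 0.0489 by limma), as large as before, and it was the 1 member called of 9, where 17.8% of genes were called. CEMIP2 was at -0.84 (adjusted p = 0.0557), HYAL3 at 0.38 (0.184), HYAL2 at 0.16 (0.377) and CD44 at 0.09 (0.640). HAS2, whose transcript is AT-rich, moved to 0.59 (adjusted p = 0.0792). The synthases thus stood on opposite sides of 0, at -0.53 and 0.59, with that adjustment.

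**Figure D4:**
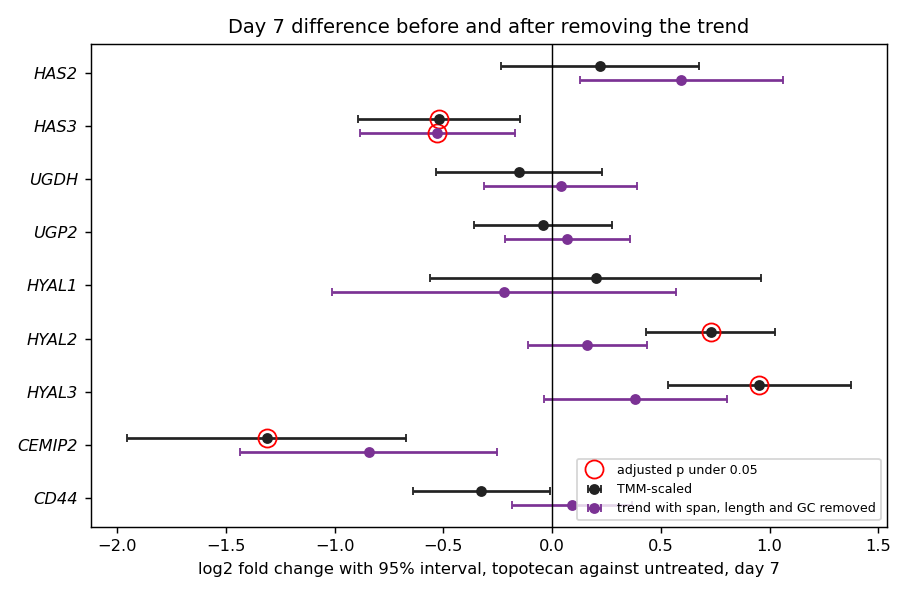
Log2 fold change of topotecan against untreated on day 7 with 95% intervals for the 9 members, before (black) and after (purple) removing the trend with span, length and GC; red rings mark an adjusted p under 0.05. HAS3 stays at -0.52 and -0.53, whereas HYAL2 goes from 0.73 to 0.16 and CD44 from -0.33 to 0.09.

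Around the members, 63 genes of hyaluronan supply, synthesis, breakdown and binding were listed, of which 53 are in the table and 42 passed the filter on low values. Among the 33 that are not members, 5 rose and 9 fell on day 7 in the second fit, 42.4% in all against 39.2% of all genes. Here and below, rose and fell mean called higher and lower than the single untreated library of day 7. Beside the counts of each list below, 18.8% of all tested genes were called higher and 20.4% lower. With the trend removed 6 of these 14 were called in the same direction, 1 in the other and 7 not at all, and 5 others were called.

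In precursor supply, 1 of 9 genes rose and none fell, with a median log2 fold change of -0.04 (all genes, -0.05). NAGK, which salvages N-acetylglucosamine, was at 35.0, 43.7 and 34.7 CPM in untreated spheroids on days 0, 3 and 7. On day 7 it was at 63.0 CPM in CONV-TOPO and 84.8 CPM in EE-TOPO spheroids. It was higher than untreated by 1.29 (adjusted p = 0.00107 by limma), and by 1.04 with the trend removed. GFPT1, the first enzyme of the hexosamine pathway, and UAP1, which makes UDP-N-acetylglucosamine, were at -0.12 and 0.38 and did not pass, and at 0.62 and 0.67 with the trend removed, where both passed.

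Among genes that draw on the same UDP-sugars, 2 of 8 rose and 3 fell (median -0.25). OGT, which attaches N-acetylglucosamine to proteins inside the cell, was at 104, 116 and 226 CPM in untreated spheroids on days 0, 3 and 7. CONV-TOPO and EE-TOPO spheroids held 171 and 149 CPM on day 3, and 54.8 and 53.0 CPM on day 7. On day 7 it was lower than untreated, itself at its highest, by 1.81 (adjusted p = 0.000196 by limma). B3GAT3 and CHPF, which build the linker and chain of other glycosaminoglycans, rose by 0.89 and 0.58, whereas EXT2 fell by 0.45 and CSGALNACT1 by 0.88. With the trend removed OGT was at -1.40 and still passed, and none of the other 4 did: B3GAT3 was at 0.15, CHPF at -0.05, EXT2 at 0.27 and CSGALNACT1 at -0.55.

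In breakdown, 2 of 7 genes rose (HYAL2, HYAL3) and 2 fell, with a median of 0.20. CEMIP, a hyaluronan-binding protein needed for hyaluronan breakdown in fibroblasts, is a relative of CEMIP2. Untreated spheroids held 68.4, 54.2 and 90.7 CPM of it on days 0, 3 and 7. CONV-TOPO spheroids held 100.9 CPM on day 3 and 51.4 on day 7, and EE-TOPO spheroids 117 and then 49.97 CPM. It was highest with both regimens on day 3, and on day 7 it fell by 0.59 against untreated (adjusted p = 0.0122; -0.19 and not past the threshold with the trend removed).

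Of the receptors, none of 4 tested rose and 1 fell (median -0.41). HMMR, which also acts at the mitotic spindle and is highest in dividing cells, was at 39.9, 23.2 and 45.9 CPM in untreated spheroids on days 0, 3 and 7. On day 7 it was at 16.0 and 16.7 CPM with CONV-TOPO and EE-TOPO, lower than untreated by 1.21 (adjusted p = 0.00359 by limma). With the trend removed HMMR was at -0.95 and still past the threshold. Among matrix binders 1 of 4 rose: PTX3, which takes part in cross-linking hyaluronan in the cumulus matrix, by 0.76 (adjusted p = 0.0203). That call was lost with the trend removed (0.54, adjusted p = 0.119).

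Around CD44, 1 of 8 linkers and sheddases rose and 4 fell (median -0.26). RDX and MSN, which tie CD44 to the actin cortex, fell by 1.36 and 0.50, the sheddases ADAM17 and ADAM10 fell by 1.39 and 0.45, and NF2, which binds the CD44 tail, rose by 0.87. ADAM10 turned to 0.51 with the trend removed, and MSN lost its call (-0.38, adjusted p = 0.0970), whereas RDX, ADAM17 and NF2 kept theirs.

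**Figure D5:**
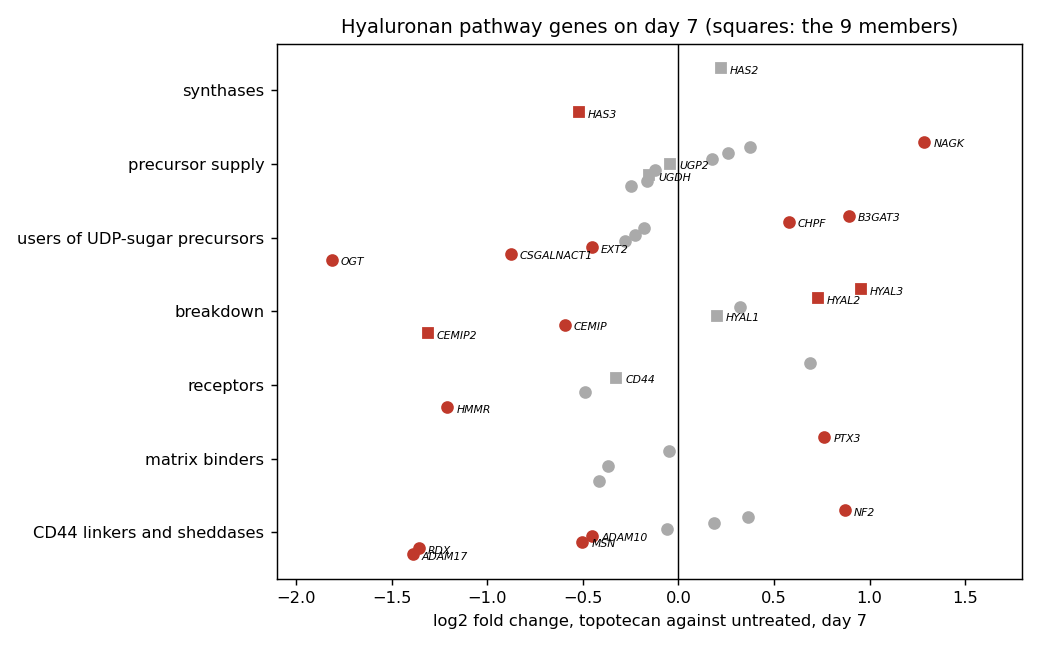
Log2 fold change of topotecan against untreated on day 7 (x axis) for the tested genes of each list (y axis), squares for the 9 members and circles for other genes; red marks an adjusted p under 0.05, and names are given for members and for genes past it (1 gene of the breakdown list is left out). Values run from -1.81 for OGT to 1.29 for NAGK, and each list other than synthases, precursor supply, receptors and matrix binders holds genes called in both directions.

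The genes whose centred log2 profile over the 7 libraries was most like that of HAS3, out of 9984 with a mean of at least 10 CPM, were NAA16, DELE1, ANAPC5, MAPK8 and DDX51, at root mean square differences of 0.0585 to 0.0662. For CD44 they were STEAP3, AP2B1, TANGO6, PRICKLE1 and EXT2, at 0.0449 to 0.0611. HAS3 and CD44 themselves differed by 0.146. At its 3′ end HAS3 shares 707 bases with CHTF8 and 714 with DERPC, both read from the opposite strand, and HAS2 shares 2095 bases with HAS2-AS1, which was at 1.53 to 3.28 CPM. The library kit does not keep strand, so reads in these overlaps cannot be assigned by strand.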

How the data were processed

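Reads were mapped by the authors with STAR (hg38), and the table they deposited holds counts scaled to 1e+06 reads per library (CPM) with 0.0001 added, which was subtracted here; the read counter and annotation are not given in the sources used here. Partek is named in the submitters' processing notes. The 3 samples of day 1 are not analysed here. The members and the gene lists were chosen with earlier results of these data known. Reads were estimated from the step of low values, of which 88.7% to 90.0% were whole multiples (tolerance 0.02), too few for a test of read counts. Genes with at least 0.565 CPM (10 reads at the median depth) in 2 of 6 libraries were tested, which left 14731. Log2(TMM-scaled CPM + 1) was fitted with limma 3.58.1 in R 4.3.3 (terms for treatment and for day, moderated variances that follow the mean, 2 residual degrees of freedom, Benjamini-Hochberg adjustment over all genes at 0.05). Fold changes on this scale understate those of low genes. The second fit by day was added after seeing the data. Named genes outside the members were those of the lists past the adjusted threshold, or with at least 10 CPM and a 2-fold ratio in both regimens on 1 day, and the 5 genes most like HAS3 and CD44; HAS1, HYAL4, GFPT1 and UAP1 were named in addition after their values were seen. Of the breakdown list, 1 gene enters the counts and is not reported here. Ratio intervals are exact conditional binomial and level intervals exact Poisson, from estimated reads. Transcript length, GC content and exons are those of the canonical transcript in GENCODE 44 and coordinates those of the table. Tables and figures were made in Python 3.11.15 (pandas 2.3.3, numpy 2.4.6, matplotlib 3.10.9), and intervals with scipy 1.17.1. Samples come from single cultures, so p-values measure only the spread between these libraries.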

Additional observations from a re-analysis of the deposited data

Results flagged for a closer look

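The change from day 3 to day 7 differed between topotecan and untreated spheroids in the test of that difference (limma, adjusted p under 0.05) for 3 of the 9 members. Of all tested genes 29% were called. The log2 difference was -1.89 for CEMIP2, 0.66 for HYAL2 and 0.83 for HYAL3. CEMIP2 went from 16.01 to 26.7 CPM without drug and from 19.5 to 8.51 CPM with CONV-TOPO and 32.8 to 8.65 CPM with EE-TOPO. HYAL2 and HYAL3 hardly moved without drug (82.7 to 84.2 CPM and 19.6 to 19.04 CPM) and were higher on day 7 with both regimens. With the trend with span, length and GC removed the differences were -1.31 for CEMIP2, -0.0040 for HYAL2 and 0.17 for HYAL3, none of which passed. The HYAL2 and HYAL3 calls were also lost with library totals and without any 1 of the 4 treated libraries. The CEMIP2 call was also lost without the EE-TOPO day 3 library. No group holds 4 or more libraries, so outliers within groups were not looked for.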

How the results depend on the processing

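No paired analysis was possible because the labels carry no replicate numbers and each treatment and day has 1 library. A test of read counts was not run. For the comparisons averaged over days, scaling, pseudocount, filter, mean-variance trend, day term and the day 0 library left the count of called genes at 0. Fits with only the 4 libraries of the treatments compared called 32 genes for EE-TOPO, 9 for CONV-TOPO and 83 for EE-TOPO against CONV-TOPO. At an unadjusted p under 0.05 the counts were 525, 254, 129, 530 and 1460. Leaving out 1 library gave 0 to 6204 for EE-TOPO, 0 to 6476 for CONV-TOPO, 0 to 79 between regimens, 3 to 6830 for both regimens and 3 to 8056 for day 7 against day 3. In the fit by day, removing the trend left 3344 of 7099 genes for topotecan day 7 against day 3, 2508 of 5770 on day 7 against untreated, 1 of 3 on day 3 and 1095 of 4267 for the difference in change. With no filter the counts were 3662 on day 7, 0 on day 3 and 1480 for the difference in change. A pseudocount of 0.1 gave 1 on day 3, and no mean-variance trend gave 0 on day 3 and 2808 for the difference. Leaving out 1 treated library gave 3480 to 6490 genes for topotecan day 7 against day 3, 0 to 70 on day 3 and 1298 to 4322 for the difference. With the trend removed, members that turned sign included HAS2 (to 0.18) and CD44 (to 0.33) for topotecan day 7 against day 3. CD44 turned to 0.0915 on day 7 and to 0.11 for the difference, and HYAL2 to -0.0040 for the difference. On day 7 HYAL1 (to -0.22), UGDH (to 0.04) and UGP2 (to 0.07) turned too, none of them called with or without the trend. With library totals HAS2 turned to -0.0102 on day 7. Other member values without a call also turned sign. HAS3 on day 7 kept its value and lost its call with no filter (adjusted p = 0.0962) and no mean-variance trend (0.0862), and CEMIP2 with no filter (0.0661), by limma. Of 711 member values under alternatives, 662 were labelled the same, and these include values that turned sign. CEMIP2 in EE-TOPO against CONV-TOPO, for example, went from 0.34 to -0.39 without the EE-TOPO day 3 library. The causes were not tested. Depth limits HYAL1, HAS1 and HYAL4, which had under 20 reads in every library.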
